A study of Mus musculus with 2 samples.

Results

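Brain border fibroblasts, the collagen-producing cells of the meninges, the choroid plexus stroma and the sheaths of larger vessels, numbered 53 of 11312 cells, 24 in the library with intact Fit2 and 29 in the library with mutated Fit2. They were selected on measured UMI counts (counted molecules): barcodes with at least 1000 UMIs, 500 genes and at most 10% mitochondrial UMIs, in which Dcn, Lum, Col1a1, Col1a2 and Col3a1 together had at least 15 UMIs and 0.2% of all UMIs, with at most 6 UMIs of the mural genes Rgs5, Higd1b and Acta2 and at most 3 of the endothelial genes Cldn5 and Cdh5. These cells lay down the matrix and basement membrane at the edge of the brain, carry transporters for solutes of the cerebrospinal fluid, and secrete retinoic acid, growth factors and carrier proteins. They lie in layers, the dura, the arachnoid and the pia, with different transporters and matrix genes.

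Cells were released enzymatically from the brains of APP-KI mice aged 6 months and sequenced with droplet-based 3' chemistry. Both libraries, Fit2-WT and Fit2-Mut, 1 of each, carried the APP knock-in, an Alzheimer's disease model. They differed in Fit2, a lipid droplet gene that the design text describes as disrupted in macrophages. The allele or driver line behind the mutation, the sex and the number of animals per library are not given in the labels. Every difference below is therefore between 2 libraries, with no test and no measure of the spread between animals. Intervals are exact 95% intervals that cover counting error only, take each UMI as independent, and understate the error of genes whose UMIs sit in few cells.

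The libraries held 52491901 and 63234140 UMIs. Fibroblasts summed to 237606 and 260557 UMIs, with a median of 8777 and 9510 UMIs and 3200 and 3476 genes per cell. Their share was 0.450% in the Fit2-WT library (0.289 to 0.669) and 0.485% in the Fit2-Mut library (0.325 to 0.696). The ratio of shares was 1.08 (0.606 to 1.93). None of the 53 shared a barcode with a cell of the other library, and Scrublet, a doublet caller that marked 124 and 155 cells in all, marked none of them. At the edge of the rule, the members with fewest marker UMIs had 16, 21 and 23 for Fit2-WT, and for Fit2-Mut 20, 22 and 22. The nearest Fit2-WT barcodes outside had 16, 14 and 14. For Fit2-Mut they had 40, 25 and 20, at a marker share of 0.181%, 0.179% and 0.115%.

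The genes of the rule describe the cells and are no finding. The 8 other fibroblast markers include the receptor Pdgfra and the matrix genes Bgn, Mgp and Col6a1. Summed over fibroblasts, all 8 were above the level of other cells in both libraries. Not every one of the 3 clusters described below carried each of them. In clusters 1, 2 and 3 Pdgfra was in 3 of 23, 15 of 16 and 10 of 14 cells. Mgp was in 23, 5 and 14 cells, and Slc6a13, another of the 8, in 0, 15 and 1. The T cell genes and the macrophage genes Mrc1, Pf4, Cbr2 and F13a1 had no UMI in any fibroblast. Neither had the mural genes Rgs5, Higd1b and Myh11 or the endothelial genes Cldn5 and Pecam1. The rule itself limits Rgs5, Higd1b and Cldn5. Other members of these lists were found. The 7 endothelial genes summed to 442 CPM (UMIs scaled to a common library total) in Fit2-WT fibroblasts, against 900 in other cells. In Fit2-Mut they summed to 802 CPM against 609. The 10 mural genes had 808 and 1597 CPM against 225 and 153, of which Vtn gave 749 and 1543 in fibroblasts. Markers of other cell types, the mural list gene Vtn among them, made up 0.0174% to 1.59% of a fibroblast's UMIs, with 4 cells over 1%. From the choroid plexus transcript Ttr, free RNA was estimated at 1.05% and 0.942% of fibroblast UMIs. Fitm2 (chromosome 2, 163466379 to 163472629, minus strand, mm10), the mouse Fit2 gene, had 2 UMIs in each library, 8.42 and 7.68 CPM. That is under the floor of 3 counts, so the Fitm2 level in fibroblasts could not be compared.

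The fibroblasts were not uniform. Clustered alone, they fell into 3 groups of 23, 16 and 14 cells, each with cells of both libraries. Because the same genes made and describe the clusters, what follows on them is description. Cluster 1 had 9 Fit2-WT and 14 Fit2-Mut cells, cluster 2 had 7 and 9, and cluster 3 had 8 and 6. As shares of a library's fibroblasts these were 37.5% (18.8 to 59.4) and 48.3% (29.4 to 67.5) for cluster 1, 29.2% (12.6 to 51.1) and 31.0% (15.3 to 50.8) for cluster 2, and 33.3% (15.6 to 55.3) and 20.7% (7.99 to 39.7) for cluster 3, with overlapping intervals in each. Mitochondrial UMIs had a median of 4.92% in cluster 1, 3.31% in cluster 2 and 3.34% in cluster 3.

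Cluster 1 carried Slc47a1 (chromosome 11, 61343401 to 61378345, minus strand), an exporter of organic cations. All 23 cells had it, from 3 to 34 UMIs with a median of 11, against 0 of 16 cells in cluster 2 and 5 of 14 in cluster 3. With every cell thinned to 2500 UMIs, 22, 0 and 4 cells had it. Fxyd5, a regulator of the sodium pump, had 14 to 99 UMIs per cell (median 37), and Mgp, the matrix Gla protein that limits calcification, 10 to 773 (median 105). Fxyd5 and Mgp were in all 23 cells, but Fxyd5 was also in 85.1% and 89.0% of endothelial cells. Ecrg4, a secreted peptide precursor, was in 23 cells and Ccn3, a matricellular protein, in 21, while in cluster 2 they were in 1 and 0 cells. The proteoglycan Lum was nearly absent from cluster 1, in 1 of 23 cells with 1 UMI, and Dcn, which binds collagen fibrils, had a median of 5 UMIs and none in 7 cells. Igfbp5, which binds insulin-like growth factors, had a median of 46 UMIs in cluster 1, 0 in cluster 2 and 5.5 in cluster 3. Summed over 6 arachnoid barrier genes, clusters 1, 2 and 3 had 1048, 134 and 703 CPM. Over 5 genes of the dural border and dura, with Slc47a1, Fxyd5 and Mgp among them, they had 23753, 1694 and 20593 CPM. Which layer cluster 1 belongs to was not tested.

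Cluster 2 carried Slc6a13 (chromosome 6, 121300227 to 121337733, plus strand), a GABA and taurine transporter, in 15 of 16 cells, 12 after thinning, against 0 of 23 in cluster 1 and 1 of 14 in cluster 3. The cystine-glutamate exchanger Slc7a11 was in 16, 0 and 5 cells of clusters 2, 1 and 3, and the organic anion transporter Slc22a6 in 14, 0 and 0. Across all 53 fibroblasts, 28 had a UMI of Slc47a1, 16 had one of Slc6a13, none had both and 9 had neither. Slc47a1 and Slc7a11 were found together in 1 cell. In endothelial cells, which should lack both and had a median of 4122.5 and 4336 UMIs, Slc47a1 was in 0.465% of 430 Fit2-WT cells and 0 of 355 Fit2-Mut cells, and Slc6a13 in none.

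**Figure D1:**
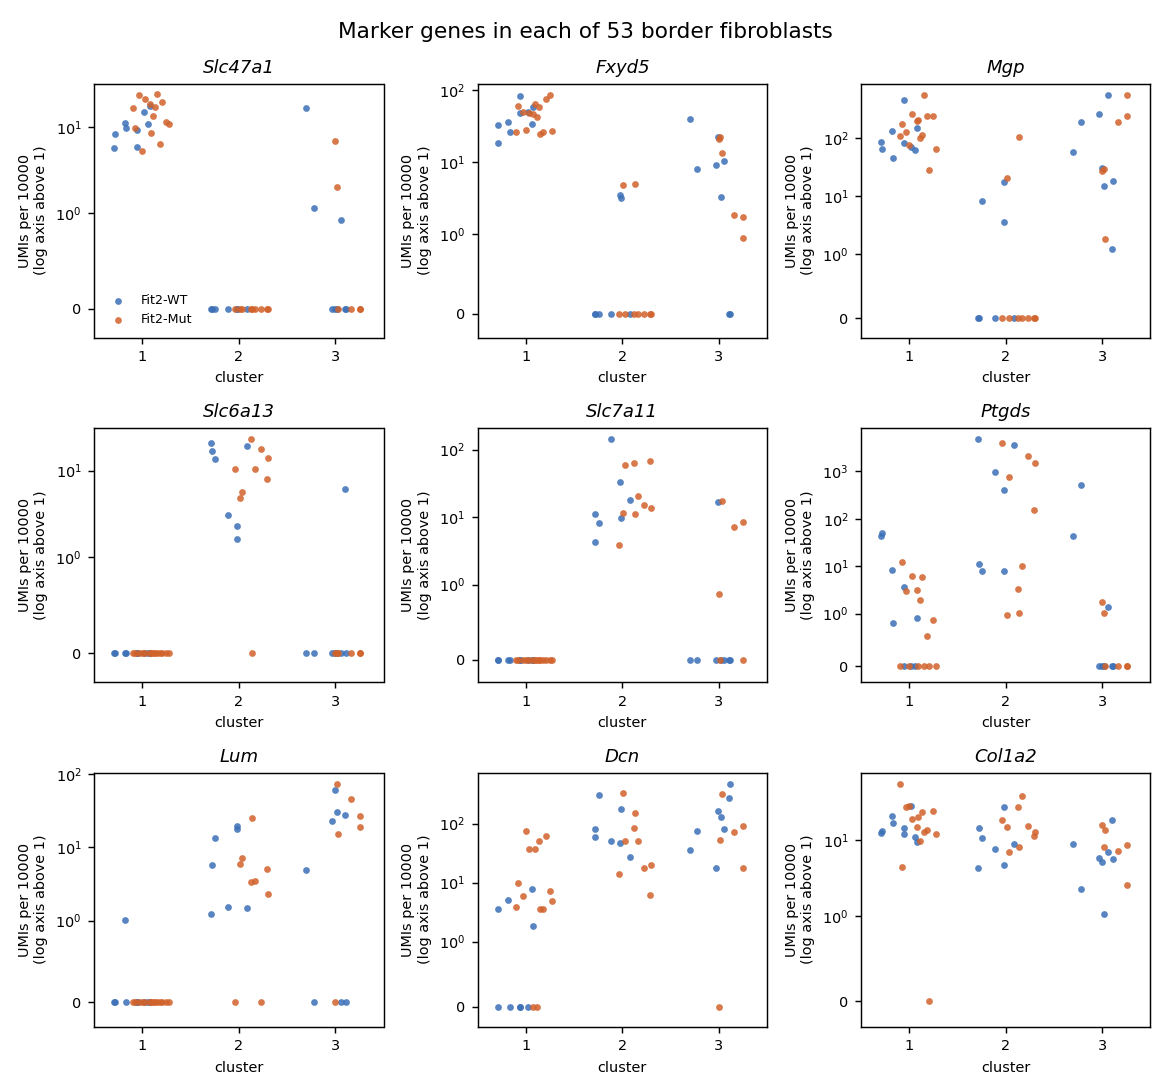
UMIs per 10000 of 9 genes in each of the 53 fibroblasts (points; log axis above 1) by cluster, coloured by library. Slc47a1 is in all 23 cells of cluster 1 and none of cluster 2, Slc6a13 in 15 of 16 cells of cluster 2 and none of cluster 1, and Lum in 1 cell of cluster 1.

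Cluster 2 also held the growth factor Igf2, in 15 of 16 cells with a median of 10 UMIs, Vtn, the adhesive protein vitronectin, in 16 with a median of 30, and the lipid carrier Apod in 16 with a median of 90. Ptgds, which makes prostaglandin D2 and carries small lipids in cerebrospinal fluid, ranged over cluster 2 from 1 to 7790 UMIs with a median of 250.5. Cluster 2 held 18106 of the 18764 Ptgds UMIs in all fibroblasts. Both Igf2 and Ptgds were also found in choroid plexus epithelial cells (1480 Fit2-WT and 1573 Fit2-Mut cells). Igf2 was in 94.0% and 92.4% of them and Ptgds in 97.5% and 96.2%. Some basement membrane genes had their highest level among the fibroblasts in cluster 2. Lama1, the laminin chain of the pial surface, had 68 UMIs in cluster 2, 8 in cluster 3 and none in cluster 1. Summed over 16 basement membrane genes the clusters 1, 2 and 3 had 848, 3739 and 1919 CPM, though Lama2, another laminin chain, was at 308, 751 and 880 CPM, highest in cluster 3. Aldh1a2, the enzyme that makes retinoic acid, was in 12, 0 and 6 cells of clusters 2, 1 and 3, though in only 1 cell of cluster 3 after thinning. The mural list was higher in cluster 2 as well, 4641 CPM against 45.4 in cluster 1 and 266 in cluster 3, carried by Vtn. The 4 cells over 1% in markers of other types, among which Vtn was counted, were Fit2-Mut cells of cluster 2. They had 57, 45, 57 and 90 UMIs of Vtn, of 8688, 2899, 7132 and 9904 UMIs in all. Leaving them out therefore also removes cells rich in Vtn. Without them the ratio of fibroblast shares was 0.929, and of the list medians given later on the log2 scale 4 changed sign: small leucine-rich proteoglycans from 0.31 to -0.09, chemokines and cytokines from 0.09 to -0.25, identity transcription factors from 0.10 to -0.06 and amyloid and lipid carriers from 0.01 to -0.07. The cluster levels were not recomputed without them.

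Cluster 3 was led by Inmt, a methyltransferase, in 9 of 14 cells, Emcn, a sialomucin, in 9, Coch, a secreted matrix protein, in 7 and Moxd1, a monooxygenase-like protein, in 8. Lum had 329 of its 414 UMIs here and a median of 22, and Dcn a median of 79.5 UMIs. Tcf21, a transcription factor of mesenchymal progenitors, had 25 UMIs, all in 4 cells of cluster 3. The cluster was mixed: 5 of its cells carried Slc47a1 and 9 did not, and Inmt was in 1 of the former and 8 of the latter.

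**Figure D2:**
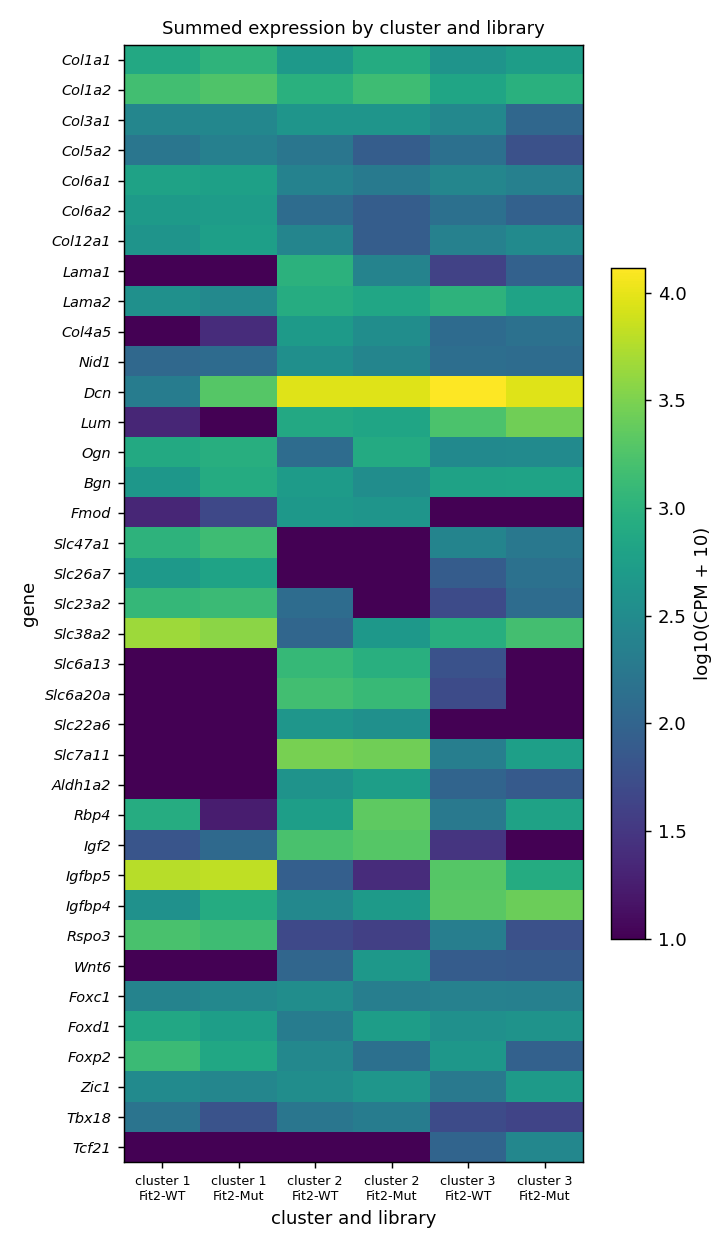
Summed CPM, as log10(CPM + 10), of 37 genes (rows) in each cluster and library (columns). Transporters split clusters 1 and 2 in both libraries, while Foxc1 lies at similar values in all 6 columns.

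Some genes that the rule did not use were found across all 3 clusters. Foxd1, a forkhead transcription factor of the meningeal and stromal lineage, was in 23 of 23, 15 of 16 and 13 of 14 cells. Foxc1, required for meningeal development, had 259, 259 and 222 CPM in clusters 1, 2 and 3. Over both libraries the summed CPM was 101-fold higher in fibroblasts than in all other cells for Foxd1, 30.6-fold for Foxc1, 163-fold for Serpinf1, which encodes the secreted antiangiogenic protein PEDF, and 440-fold for the aldehyde oxidase Aox3. Against mural cells, the other perivascular type (51 and 41 cells), Serpinf1 had 438 and 576 CPM in fibroblasts and 0 in mural cells of both libraries, and Igfbp6 had 1275 and 1270 CPM against 0. The forkhead genes were present in mural cells too: Foxc1 had 253 and 242 CPM in fibroblasts against 122 and 117 in mural cells, and Foxd1 had 455 and 503 CPM against 111 and 81.6.

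Some cluster 1 cells carried transcripts of the genes of antigen presentation to helper T cells. Of 7 MHC class II genes, a list added after the values were seen, 9 fibroblasts had at least 5 UMIs in sum, 4 Fit2-WT and 5 Fit2-Mut, and all 9 were in cluster 1. In the 4 Fit2-WT cells the sums were 84, 63, 26 and 19 UMIs, and in the 5 Fit2-Mut cells 49, 24, 21, 20 and 17. The invariant chain Cd74 had 5 to 60 UMIs in them. No cell of clusters 2 or 3 had more than 1 class II UMI. The 9 cells had no UMI of Ptprc, Tyrobp or Csf1r, which mark leukocytes and macrophages. Over 16 microglia, macrophage and B cell genes they had 0 to 6 UMIs (median 3), against 0 to 6 (median 1) in the other 14 cells of cluster 1. The part of these UMIs in the result was not tested. The summed class II level in cluster 1 was 2238 CPM in Fit2-WT and 1065 CPM in Fit2-Mut, and the Cd74 ratio within it was 0.452 (0.329 to 0.618). That difference rests on few cells: 1 Fit2-WT cell held 84 of the 197 class II UMIs of its library in cluster 1. Cells outside the rule with at least 5 UMIs of Slc47a1, described below, also had Cd74. It was at 327 CPM in Fit2-WT and 463 CPM in Fit2-Mut there, the opposite direction.

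**Figure D3:**
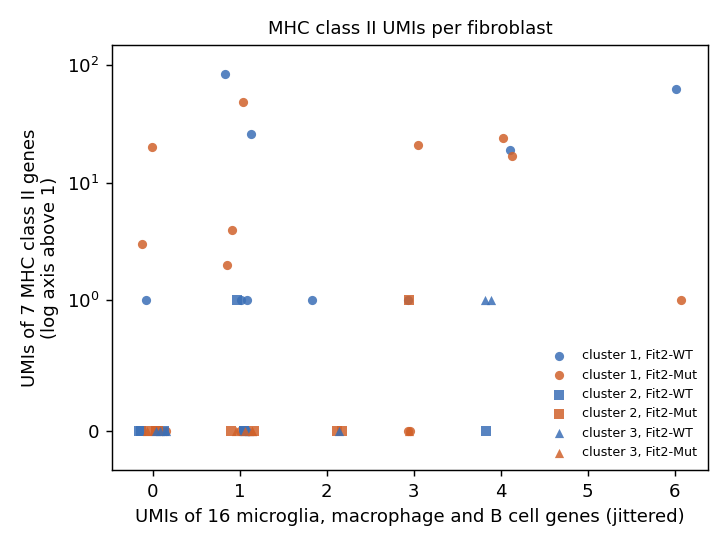
UMIs of 7 MHC class II genes in each fibroblast (y, log axis above 1) against its UMIs of 16 microglia, macrophage and B cell genes (x, jittered), by cluster (shape) and library (colour). The 9 cells with 17 to 84 class II UMIs are circles, cluster 1, and spread over 0 to 6 on the x axis.

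The rule reached only part of the Slc47a1 cells. At 30 marker UMIs and 0.4% it would keep 6 of 14 cluster 1 cells of the Fit2-Mut library and 0 of 9 of the other. Of all cells with at least 5 UMIs of Slc47a1, 25 Fit2-WT and 54 Fit2-Mut cells, 10 and 14 were fibroblasts by the rule and 15 and 40 lay outside it, with a median of 9 marker UMIs. The outside cells had Slc47a1 at 915 and 1076 CPM, against 1034 and 1397 CPM in cluster 1, and Mgp at 11601 and 14282 CPM against 12135 and 19709. Their Col1a1 was lower, at 212 and 304 CPM against 750 and 1035 CPM. Col1a1 is a gene of the rule. Igfbp5, which the rule does not use, was lower as well, at 1327 and 1380 CPM against 5943 and 6479 CPM. So were Ecrg4, at 1327 and 1734 CPM against 5465 and 3753, and Shisa3, at 18.2 and 38.2 CPM against 227 and 355. Ptgds was higher in the outside cells, at 19984 and 2547 CPM against 1307 and 227, and so was Cdh1, at 90.9 and 155 CPM against 68.2 and 37.8. The Cdh1 levels rest on few counts, with 16 and 6 UMIs in all fibroblasts of Fit2-WT and Fit2-Mut. Ccn3 was lower outside in Fit2-WT, at 1370 against 2818 CPM, but higher in Fit2-Mut, at 2060 against 1654 CPM. Whether the outside cells are of the same type as cluster 1 was not tested. Cells rich in Slc47a1, inside and outside the rule together, were also taken as a share of all cells. They made up 0.469% (0.304 to 0.691) in the Fit2-WT library and 0.903% (0.679 to 1.18) in the Fit2-Mut library, a ratio of 1.93 (1.18 to 3.23). This was a comparison chosen after the counts were seen. Thinned to 2500 UMIs, with at least 2 UMIs of the gene required, the cells numbered 18 of 4766 and 48 of 5437, a ratio of 2.34 (1.34 to 4.27). With 1 library each, genotype and preparation cannot be told apart.

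The Fit2-Mut library was then compared with the Fit2-WT library, over summed fibroblasts. Of 4522 genes with at least 20 UMIs, 781 (17.3%) were at least 1.5-fold higher in Fit2-Mut and 499 (11%) at least 1.5-fold lower, and the log2 ratio had a median of 0.10, a 5% point of -0.89 and a 95% point of 1.06. With TMM scaling, which assumes that most genes do not differ, the shares were 14.7% higher and 14.1% lower, nearly even. Counts of list members past 1.5-fold are without that scaling and are read against these shares. The background differed within clusters. In cluster 2, of 855 genes with at least 20 UMIs, 35% were at least 1.5-fold higher and 11.8% lower, with a median log2 ratio of 0.34. In clusters 1 and 3, 17.9% and 18.1% were higher and 15.9% and 15.7% lower, with medians of 0.04 and 0.03. Ratios within a cluster are read against these.

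Structural matrix genes came first. Of 5 measured fibrillar collagens, 2 were past 1.5-fold higher and none lower, with a list median of 0.55 on the log2 scale that became -0.11 where genes with 1 UMI in each library were counted. Col1a1 had 129 and 224 UMIs in Fit2-WT and Fit2-Mut (543 and 860 CPM, ratio 1.58, 1.27 to 1.98). Its ratio was 1.38, 1.74 and 1.34 in clusters 1, 2 and 3. Col1a2 was at 1.47 (1.25 to 1.73), and Col3a1, the type III chain, at 0.886 (0.627 to 1.25). These 3 of the 5 measured genes belong to the rule, and the list median of 0.55 is the value of Col1a2. The count and median of this list therefore rest on genes that chose the cells and are no separate finding. Of 13 other collagens 2 were higher and 3 lower (median 0.09), and of 13 basement membrane genes 2 were higher and 3 lower (median -0.13). Lama2, a laminin chain, was lower at 737 and 468 CPM (ratio 0.636, 0.50 to 0.806). Lama1 had 55 and 21 UMIs (ratio 0.348, 0.20 to 0.585), of which 52 and 16 lay in cluster 2. Of 12 collagen-processing genes 2 were higher and none lower (median 0.37), and the collagen chaperone Serpinh1 had 142 and 202 UMIs (ratio 1.30, 1.04 to 1.62).

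Of 7 small leucine-rich proteoglycans 2 were higher and none lower (median 0.31, but -0.16 at 5% mitochondrial UMIs). The proteoglycan Dcn had 1759 and 1438 UMIs (ratio 0.746, 0.695 to 0.80), but its ratio differed among clusters. It was 1.0 (0.887 to 1.13) in cluster 2, 0.712 (0.643 to 0.788) in cluster 3 and 10.2 (6.23 to 17.7) in cluster 1, where 17 UMIs lay in 4 of 9 Fit2-WT cells and 260 in 12 of 14 Fit2-Mut cells, 113 of them in 1 cell. Dcn is a gene of the rule, and so is Lum, another of the 7. Of 13 elastic fibre genes 2 were higher and 4 lower (median 0.16). Mfap4, a microfibril-associated protein of elastic fibres, had 27 and 158 UMIs (ratio 5.34, 3.53 to 8.35). It was found in 5 and 13 cells and was higher in Fit2-Mut in each cluster: 0 and 80 UMIs in cluster 1, 2 and 26 in cluster 2, and 25 and 52 in cluster 3. The Wnt modulator Sfrp4 had 42 and 139 UMIs (ratio 3.02, 2.12 to 4.37), with ratios of 2.75 and 3.69 in clusters 1 and 3. Of 7 Wnt genes measured 3 were higher and none lower (median 0.43).

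Other matrix lists followed. Of 13 matricellular genes 1 was higher and 4 lower, with a median of -0.38 that was 0.23 in cluster 1 alone. Of 9 myofibroblast and scar genes none was higher and 4 lower, with a median of -0.52 that was 0.04 where genes with 1 UMI in each library were counted. Of 13 matrix proteases and inhibitors 5 were higher and 2 lower (median 0.35). Fibronectin, Fn1, had 142 and 64 UMIs (ratio 0.411, 0.301 to 0.556). It was at 0.886 (0.574 to 1.38) in cluster 1, and 66 UMIs of cluster 3 came from 1 cell. Without the 5 cells per library that held most of it the log2 ratio was 0.93, the opposite direction. Prg4, the lubricating protein lubricin, had 268 and 18 UMIs, each in 3 cells.

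Secreted carriers differed with few cells. Ptgds had 11810 and 6954 UMIs (ratio 0.537, 0.521 to 0.553). One Fit2-WT cell held 7790 of them, and the 5 cells with most held 98.5% in Fit2-WT and 99.4% in Fit2-Mut. Apod had 2091 and 1121 UMIs (ratio 0.489, 0.454 to 0.526), with ratios of 0.512 in cluster 2, 0.391 in cluster 3 and 2.29 in cluster 1, where it had 20 and 69 UMIs. Clu, the chaperone clusterin that binds amyloid, had 138 and 24 UMIs (ratio 0.159, 0.0983 to 0.246), and 1 Fit2-WT cell of cluster 3 held 73; without the 5 cells per library with most of it the log2 ratio moved from -2.66 to -1.43. Apoe had 737 and 833 UMIs (ratio 1.03, 0.932 to 1.14), and App, the amyloid precursor changed by the knock-in, 100 and 147 (ratio 1.34, 1.03 to 1.75). Within clusters 1, 2 and 3 the App ratio was 1.13 (0.73 to 1.79), 1.06 (0.60 to 1.89) and 2.16 (1.43 to 3.29). Of 14 amyloid and lipid carrier genes 1 was higher and 3 lower (median 0.01, and -0.08 with TMM scaling).

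**Figure D4:**
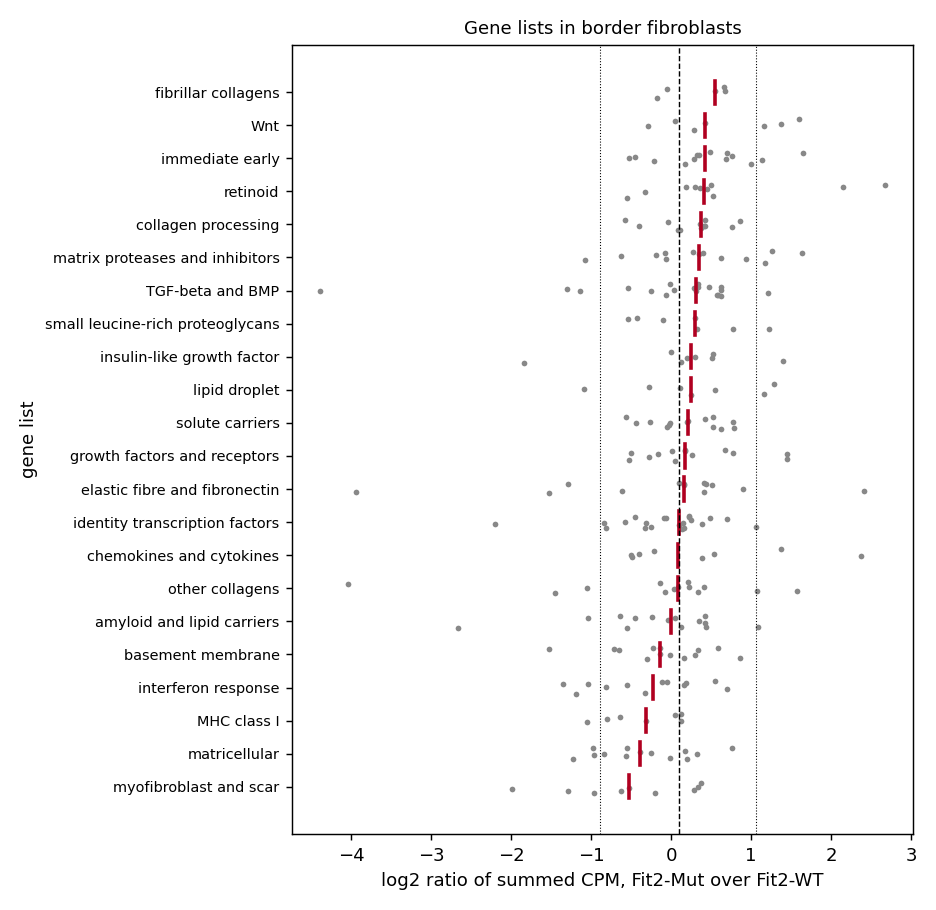
Log2 ratio of summed CPM, Fit2-Mut over Fit2-WT, of each measured gene (grey points) in 22 gene lists with at least 5 measured members (1 further such list is not shown), with the list median in red. Dashed and dotted lines mark the median (0.10) and the 5% and 95% points (-0.89 and 1.06) of all 4522 genes, and the 22 list medians lie between -0.52 and 0.55. The highest median, of the fibrillar collagens, is the value of Col1a2, a gene of the rule.

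Transporters, growth factors and immune genes followed. Of 14 solute carriers 3 were higher and none lower (median 0.21). Slc47a1 had 115 and 195 UMIs (ratio 1.55, 1.22 to 1.96), with a ratio of 1.35 (1.05 to 1.76) in cluster 1 and 0.679 (0.290 to 1.47) in cluster 3. Slc6a13 had 68 and 62 UMIs (ratio 0.831, 0.580 to 1.19). Of 8 insulin-like growth factor genes 1 was higher and 1 lower (median 0.25), of 10 retinoid genes 2 were higher and none lower (median 0.41), and of 19 TGF-beta and BMP genes 5 were higher and 3 lower (median 0.32). The growth factor Ptn had 952 and 724 UMIs (ratio 0.694, 0.629 to 0.765), with 4 of 13 growth factor and receptor genes higher and none lower (median 0.17). Of 8 chemokine and cytokine genes 2 were higher and none lower (median 0.09). The chemokine Cxcl12 had 162 and 233 UMIs (ratio 1.31, 1.07 to 1.61). Its ratio was 0.928 (0.631 to 1.37), 1.47 (1.004 to 2.17) and 1.90 (1.37 to 2.65) in clusters 1, 2 and 3. Of 12 interferon response genes 1 was higher and 4 lower (median -0.22), and of 7 MHC class I genes none was higher and 3 lower (median -0.31). H2-K1 had 104 and 55 UMIs (ratio 0.482, 0.341 to 0.675), with a ratio of 0.287 (0.166 to 0.481) in cluster 1 and 0.877 (0.490 to 1.53) in cluster 3.

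Of 14 immediate early genes, the fast transcriptional response to a stimulus, 6 were higher and none lower. Their median of 0.42 became -0.21 at 30 marker UMIs and 0.4%. Egr1 had 27 and 93 UMIs (ratio 3.14, 2.03 to 5.02), and Fos 110 and 169 (ratio 1.40, 1.10 to 1.80). The Fos ratio was 1.46 (1.05 to 2.05) in cluster 1 and 0.830 (0.502 to 1.34) in cluster 3, with 2 and 21 UMIs in cluster 2. At 5% mitochondrial UMIs the log2 ratio of Egr1 was 0.87, against 1.65 at the 10% limit. The lipid droplet list, to which Fit2 belongs, had 2 of 7 members higher and 1 lower (median 0.24); its most counted member, G0s2, an inhibitor of triglyceride breakdown, had 57 and 74 UMIs (ratio 1.18, 0.827 to 1.70).

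Transcription factors of fibroblast identity were close to the background, with 2 of 21 higher and 3 lower (median 0.10, and -0.40 in cluster 1 alone). Foxp2 had 171 and 107 UMIs (ratio 0.571, 0.444 to 0.731), and lay below 1 in each cluster, at 0.537, 0.489 and 0.194. The cluster 2 value rests on 14 and 9 UMIs, with an interval of 0.187 to 1.21. That of cluster 3 rests on 42 and 5 UMIs (0.0599 to 0.489). Of 4 measured prostanoid genes none was higher and 1, Ptgds, was lower.

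Several other genes were picked by the size of their ratio. Among those higher in Fit2-Mut, Hs3st1, a heparan sulfate sulfotransferase, had 17 and 73 UMIs, and the opioid precursor Penk 10 and 44, with 88 of 90 and 52 of 54 UMIs in cluster 1. Myoc, the secreted protein myocilin, had 3 and 67 UMIs, the latter in 3 cells. Tsc22d1, a transcriptional regulator, was broader, with 166 UMIs in 22 cells and 390 UMIs in 27 cells (ratio 2.14, 1.78 to 2.59), but its log2 ratio was 0.01 with cells thinned to 1000 UMIs. Tgfbi, a matrix protein induced by TGF-beta, had 45 and 114 UMIs (ratio 2.31, 1.62 to 3.34), and the retinaldehyde reductase Dhrs3 had 13 and 63 (ratio 4.42, 2.41 to 8.75). Among those lower in Fit2-Mut, Erc2, a presynaptic scaffold gene, had 99 and 25 UMIs (ratio 0.230, 0.142 to 0.360), the calcium-binding S100a6 had 238 and 80 (ratio 0.307, 0.235 to 0.396), and Coch had 84 and 36 UMIs in 4 and 6 cells. Without the 5 cells per library with most of the gene, the log2 ratio of S100a6 moved from -1.71 to -0.41, no longer past 1.5-fold, and that of Erc2 from -2.12 to -1.11. With cells weighted equally that of Coch moved from -1.36 to -0.49.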

How the data were processed

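Whole-brain cells of 1 APP-KI Fit2-WT and 1 APP-KI Fit2-Mut library were analysed from the deposited UMI count matrices, whole numbers per gene and barcode for all barcodes and 32285 genes, with no normalization. Cell Ranger made them on mm10; its version is 7.1.0 per the file headers but 7.0.0 per the submitters' processing notes. Which annotation was used, and whether intronic reads were counted, which can raise long genes, is not given in the sources used here.

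Fibroblasts were chosen by marker UMIs, summed per library and divided by their total (CPM). Ratios (Fit2-Mut over Fit2-WT) have exact conditional intervals, shares Clopper-Pearson intervals, at 95%. A count of 0 was read with a floor of 3 counts. With 1 library per genotype no p-value was computed. Genes with at least 20 UMIs were compared; called means past 1.5-fold. Members were clustered with Scanpy 1.11.5 and leidenalg 0.10.2 (1000 variable genes, 15 components, 15 neighbours, resolution 1). Scrublet calls were noted, not removed. Comparison cells were chosen by marker UMIs: at least 10 for mural, 5 for endothelial and 5 for choroid plexus epithelial cells. Positions are from GENCODE on the same build. The ratio and interval script was tested on simulated data.

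Members, 24 gene lists, markers and tests were chosen with earlier results of these data known. Named genes were the 12 highest and 12 lowest by the interval bound nearest to 1 (at least 50 UMIs together, in at least 10% of members of the higher library, at least 0.5 times the free RNA level there, without ribosomal, mitochondrial, haemoglobin and sex-linked genes), the 30 most enriched over other cells, members of the lists with most UMIs, and the rule's genes with Fitm2, App and Apoe; not all are named, and some results are not reported here. Genes named to describe the clusters and MHC class II were chosen after their values were seen.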

Additional observations from a re-analysis of the deposited data

How the results depend on the processing

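The share ratio of 1.08 lay within its interval under the 6 alternatives tried, from 0.929 without members over 1% in markers of other types to 1.32 at 8 marker UMIs and 0.1%. Of 290 list medians under an alternative, 33 changed sign, in 15 lists, and 289 lay between the medians of their members' lower and upper bounds. The exception was the immediate early median, which was 0.42 and became -0.21 at 30 marker UMIs and 0.4%, a limit that leaves 14 and 17 fibroblasts and 0 and 6 of the cells of cluster 1. The number of clusters was 2 at resolution 0.5 and 6 at resolution 1.5. At 0.5 the 16 cells of cluster 2 merged with 11 cells of cluster 3, and the other 3 cells of cluster 3 joined cluster 1. At 1.5 cluster 2 stayed whole and cluster 1 split 3 ways. Cluster 3 split into 10 and 3 cells there, and 1 cell joined a part of cluster 1. Of the values for single named genes, 133 lay within the counting interval of the ratio, 34 moved out of it and 1 changed direction, Fn1, at a log2 ratio of 0.93 without the 5 cells per library with most of its UMIs. Egr1 fell from a log2 ratio of 1.65 to 0.87 at 5% mitochondrial UMIs, and Ptgds ranged from -0.51 to -2.43. The share of genes past 1.5-fold was 6.97% higher and 3.81% lower among the 761 genes with at least 100 UMIs, and at this depth Fitm2, with 2 UMIs in each library, could not be compared. TMM scaling would shift log2 ratios by 0.09, giving 14.7% higher and 14.1% lower, and median of ratios scaling by 0.04. Alternatives with 2500 UMIs, cluster 1 only, equally weighted clusters, members over 1% left out of the list medians and 5% mitochondrial UMIs for named genes were chosen after seeing the data. No paired analysis was possible because there is 1 library per genotype, and for the same reason no replicate could be left out.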
